A study of Homo sapiens with 44 samples.

Results

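Titin, the alpha-actinin of the Z-disc and 7 genes whose products sit at the Z-disc, along the thick filament or at the M-band were followed through cardiac differentiation of H1, a widely used line of human embryonic stem cells. The members were chosen by name and matched by GENCODE symbol to the deposited gene identifiers. They are TTN, ACTN2, LDB3, MYOZ2, TCAP, MYBPC3, MYOM1, MYOM2 and MYOM3, which makes 9 genes of 60499 listed. Levels in 44 wells of 12 groups were compared to show in which order the genes appear. The rule itself uses no measured value, but earlier results of these data were known when the genes were chosen.

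All wells hold the same cell line with no genetic change given in the labels, so that the groups differ in time, medium and coating. Pluripotent cells grew on the laminin LN-521 (3 wells), and all later cells on LN-521 with LN-221. At day 0 (3 wells) the cells were in Nutristem, a stem cell medium. CHIR99021, which inhibits the kinase GSK3 and so activates Wnt signalling, was given from day 0 and present in the wells taken at day 1 and day 3 (3 wells each). IWP2, which blocks the release of Wnt ligands, was given from day 3 and present at day 5 (5 wells). The wells of days 7 and 9 (5 each) received neither compound. Up to day 9 the basal medium RPMI 1640 carried B27 without insulin, and from day 11 (5 wells), through days 14, 20 and 30, to day 90 (3 each), it carried CTS B-27. The series text gives 3 wells for day 11, whereas the labels name 5, and all were used. The labels call the wells biological replicates but do not say whether they came from separate differentiations, so p-values measure the spread between wells only.

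A sarcomere, the contractile unit of striated muscle, runs between neighbouring Z-discs, where alpha-actinin crosslinks the thin filaments. Titin spans from the Z-disc to the M-band in the middle, acts as a spring and carries binding sites for the thick filament. At the M-band, myomesins crosslink titin and myosin. In current models of assembly, alpha-actinin and titin are already present in early precursors, and M-band proteins are integrated later. At the Z-disc, LDB3 (cypher, or ZASP) and MYOZ2 (calsarcin-1, which binds calcineurin) bind alpha-actinin, and TCAP (telethonin) caps the end of titin. MYBPC3 is the cardiac form of myosin-binding protein C on the thick filament.

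In GRCh38 with GENCODE release 29, TTN lies on chromosome 2 (178525989 to 178830802, minus strand), ACTN2 on chromosome 1 (236686454 to 236764631, plus strand) and MYBPC3 on chromosome 11 (47331397 to 47352702, minus strand). LDB3 lies on chromosome 10 (86668449 to 86736068, plus strand), MYOZ2 on chromosome 4 (119135784 to 119187789, plus strand) and TCAP on chromosome 17 (39664187 to 39666555, plus strand). MYOM1 lies on chromosome 18 (3066807 to 3220108, minus strand) and MYOM3 on chromosome 1 (24056035 to 24112175, minus strand). The values count reads over whole genes and tell no exon or isoform apart.

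Because most members rose in the same few days, the sequence upstream of their start sites was read from RefSeq (GRCh38.p14) for 5 members, namely TTN, ACTN2, LDB3, MYBPC3 and MYOM1. In the 250 bases before the start, both strands were searched for the MEF2 box, the site of a muscle transcription factor family, and the CArG box, the site of serum response factor. The windows below show each match in capitals with its neighbouring bases, 5′ to 3′ on the strand of the gene. The first 2 hold a MEF2 box and the last 2 a CArG box. RefSeq places the start used here inside the GENCODE span given above for TTN, LDB3 and MYOM1, so the windows of TTN and MYOM1 lie within that span and that of LDB3 overlaps its first bases.
TTN (chr2:178807571-178807600, minus strand): ctttgaggtaCTAAATTTAGcactgtcaat
MYBPC3 (chr11:47352777-47352806, minus strand): tggaattcatCTATATTTAGcaggtggctg
LDB3 (chr10:86668444-86668473, plus strand): gggttacagtCCATTTATGGgcgcagccga
MYOM1 (chr18:3219981-3220010, minus strand): gccttcttggCCATAAAAGGctggttgtgt

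A MEF2 box stood in 2 of these 5 members, against 2.80% of 35116 promoter windows of the same length. A CArG box stood in 2 of the 5, against 1.16% of windows. Of shorter motifs, the GATA motif AGATAA was found in MYBPC3 and MYOM1 (9.17% of windows), the TEAD motif CATTCC in none of the 5 (11.9%) and the E-box CANNTG in 4, all but LDB3 (61.8%). No 2 of these motifs were merged, and a match here is a string of letters, not a measured binding site.

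Libraries held 6937136 to 33498022 counts, and 2 libraries lay under 1e7 counts (day 14 replicate 2 and day 20 replicate 2). The unit of level is CPM (counts per 1e6 counts, after TMM, the trimmed mean of M values, had scaled the libraries), with mean ± SD over wells; 3 counts, taken as the lowest level a library can show, equal 0.0896 to 0.432 CPM before scaling. The test was edgeR's quasi-likelihood test over 22955 genes, with Benjamini-Hochberg adjusted p. Genes count as called below an adjusted p of 0.05 with a log2 fold change of 1 or more, up or down. All 9 members passed the filter on low counts. The cells were checked by summed markers. The 6 cardiomyocyte markers (TNNT2, MYH6, MYL7, NKX2-5, RYR2, TNNI3) came to 51.2 to 92.9 CPM per well up to day 3, to 323 to 689 at day 5 and to 4691 or more in every later well. Of the 9 skeletal muscle markers, 3 to 7 per group were at or under 3 counts in every well, and MYH8 and MYF5 were among these in most groups. In RNA from whole wells, fewer cells of a type and less RNA per cell cannot be told apart.

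**Figure D1:**
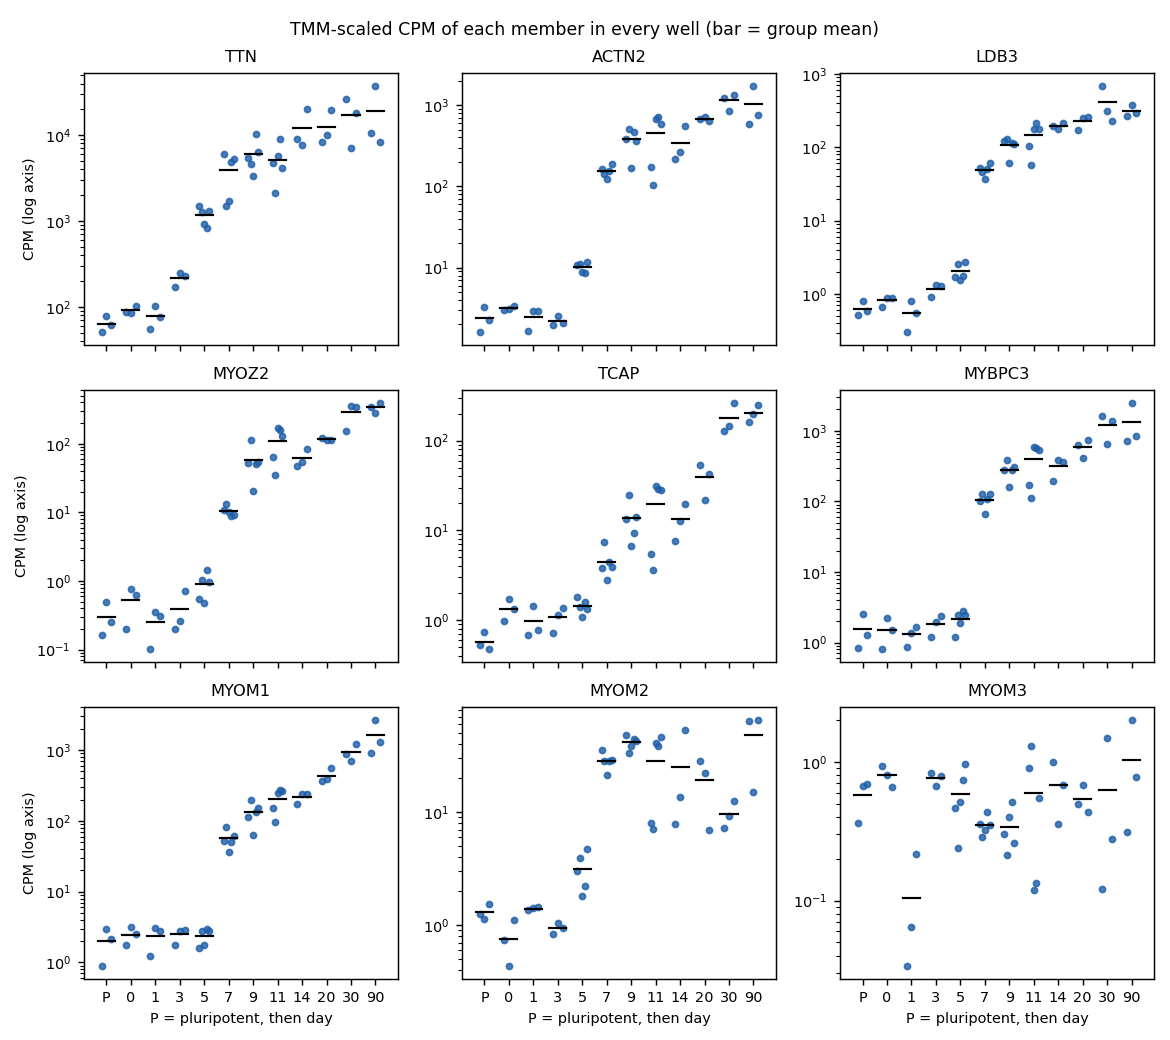
Level of each gene in every well, as TMM-scaled CPM on a log axis, with groups on the horizontal axis (P, pluripotent) and a bar at the group mean. All wells of TTN, ACTN2, LDB3 and MYOM2 lie above those of day 3 and before at day 5. All wells of MYBPC3, MYOM1, MYOZ2 and TCAP first do so at day 7. MYOM3 stays between 0.105 and 1.04 CPM in every group mean.

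TTN was called higher already at day 3. Its level was 50.5, 78.2 and 60.9 CPM in the pluripotent wells and 87.5, 85.2 and 103 CPM at day 0. At day 1 the wells held 54.6, 101 and 75.9 CPM, and at day 3 they held 170, 249 and 226 CPM. All day 3 wells thus lay above all wells taken before. The step from day 1 to day 3 had a log2 fold change of 1.48 (SE 0.54, adjusted p = 0.035), and the call was lost in 4 of the 6 fits that left out a well: day 1 replicate 1, day 1 replicate 3, day 3 replicate 2 or day 3 replicate 3. Of the members, 2 of 9 were called higher at this step, TTN and MYOM3, beside 11.0% of all genes. LDB3 lay near the threshold (log2 fold change 1.08, SE 0.46, adjusted p = 0.075), its day 3 wells did not overlap those of day 0, and it was called in DESeq2 and when only these groups entered the fit. Limma on TPM called no member at this step.

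By day 5 TTN had reached 1500, 1259, 916, 834 and 1308 CPM. The lowest of these wells lay well above the highest day 3 well, and the log2 fold change was 2.43 (SE 0.53, adjusted p = 0.00085). At day 7 the wells spread from 1493 to 6095 CPM, with replicates 10 and 2 (1725 CPM) apart from the other 3 at 4911 CPM or more. The mean rose by 1.74 on the log2 scale (SE 0.42, adjusted p = 0.0061), a call that limma on TPM did not give (log2 fold change 1.47, adjusted p = 0.14). From there the group means were 5996 ± 2630 CPM at day 9 and 5164 ± 2554 at day 11 (SD, n = 5 each). They were 12244 ± 6772 CPM for the wells of day 14, 12614 ± 6018 for day 20, 17358 ± 9815 for day 30 and 18939 ± 16459 for day 90 (SD, n = 3 each). No step after day 7 was called for TTN. Neighbouring groups in the order of its levels separated without overlap in 2 of 11 places, which were day 5 over day 3 and day 3 over day 0.

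TTN overlaps 10 annotated genes, 9 of them on the other strand, and whether counting used the strand is not given in the sources used here. TTN-AS1, the antisense gene, stood at 16.4 CPM at day 3, 14.2 at day 5 and 9.96 at day 9, which was 7.60%, 1.22% and 0.166% of the TTN mean. CCDC141, whose annotated span overlaps TTN on the same strand, rose from 49.9 to 105 to 227 CPM over these days. From day 3 on, TTN increased far more than the antisense gene, which was lower at day 9 than at day 3. Over the earlier step from day 1 to day 3, CCDC141 rose from 12.1 to 49.9 CPM, or from 15.7% to 23.2% of the TTN mean. TTN-AS1 stood at 17.3 CPM at day 1, which was 22.4% of the TTN mean. The part of overlapping genes in the TTN levels was not tested.

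ACTN2, the sarcomeric alpha-actinin, rose at day 5 together with TTN. At day 3 the wells held 1.99, 2.57 and 2.11 CPM, within the range of 1.61 to 3.42 CPM of all earlier wells. At day 5 they held 10.8, 11.1, 8.73, 8.70 and 11.6 CPM, with no overlap (log2 fold change 2.20, SE 0.47, adjusted p = 0.00073). The gene then rose by 3.92 on the log2 scale to 155 ± 24.0 CPM at day 7 (SE 0.39, adjusted p = 2.3e-09). A further rise of 1.29 led to 378 ± 133 CPM at day 9 (SE 0.35, adjusted p = 0.041; SD, n = 5 each). This call was lost with lane as a term (adjusted p = 0.051), in limma on TPM (adjusted p = 0.62) and in 9 of the 10 fits that left out a well, all but that without day 9 replicate 2. The highest mean was 1140 ± 262 CPM at day 30 (SD, n = 3), and the day 90 wells held 590, 1736 and 765 CPM on both sides of it.

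Beyond TTN and ACTN2, 1 more member was called at day 5, so that 3 of 9 were higher than at day 3, and none lower, beside 5.75% of all genes higher and 4.34% lower. It was MYOM2, with wells at 3.02, 3.91, 1.80, 2.22 and 4.69 CPM after 0.834, 1.04 and 0.943 CPM at day 3. Its log2 fold change was 1.73 (SE 0.61, adjusted p = 0.044), and the call was lost without any one of day 3 replicates 1, 2 and 3 or day 5 replicates 1, 2 and 5, with lane as a term (adjusted p = 0.069) and in limma on TPM (log2 fold change 0.59, adjusted p = 0.49). LDB3 also lay above all 12 wells of day 3 and before in all 5 wells of day 5, at 1.54 to 2.72 CPM, but its log2 fold change of 0.80 was not called (SE 0.37, adjusted p = 0.14). MYBPC3 (log2 fold change 0.23, SE 0.50) and MYOM1 (-0.06, SE 0.40) had wells that overlapped those of day 3.

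At day 7 the other sarcomere members followed. Against day 5, 8 of the 9 were called higher, all but MYOM3, and none lower, beside 2.74% of all genes higher and 0.906% lower. The median log2 fold change of the members was 3.53, and that of all genes was -0.01.

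MYBPC3 had the largest step of the members. Its day 5 wells held 1.2, 2.44, 1.88, 2.78 and 2.46 CPM, which overlaps the earlier range of 0.805 to 2.57 CPM. At day 7 they held 102, 127, 65.9, 106 and 128 CPM. No day 7 well came near the day 5 range, and the log2 fold change was 5.62 (SE 0.47, adjusted p = 3.4e-11).

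MYOM1, the main myomesin of the heart, behaved alike, with 1.59 to 3.00 CPM at day 5 and 52.3, 83.0, 36.1, 51.0 and 60.6 CPM at day 7 (log2 fold change 4.57, SE 0.37, adjusted p = 1.9e-11). LDB3 rose to 49.0 ± 8.68 CPM at day 7 (SD, n = 5; log2 fold change 4.56, SE 0.31, adjusted p = 6e-13). MYOZ2 stood at 0.890 ± 0.394 CPM and then at 10.3 ± 1.77 CPM (SD, n = 5 each), a rise of 3.53 on the log2 scale (SE 0.43, adjusted p = 1.5e-07). MYOM2 rose to 21.1 to 35.6 CPM (log2 fold change 3.18, SE 0.48, adjusted p = 9.7e-06). TCAP moved least of the called genes, from 1.45 ± 0.283 to 4.48 ± 1.79 CPM (SD, n = 5 each; log2 fold change 1.62, SE 0.45, adjusted p = 0.02), and was not called without day 5 replicate 3 or without day 7 replicate 10.

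**Figure D2:**
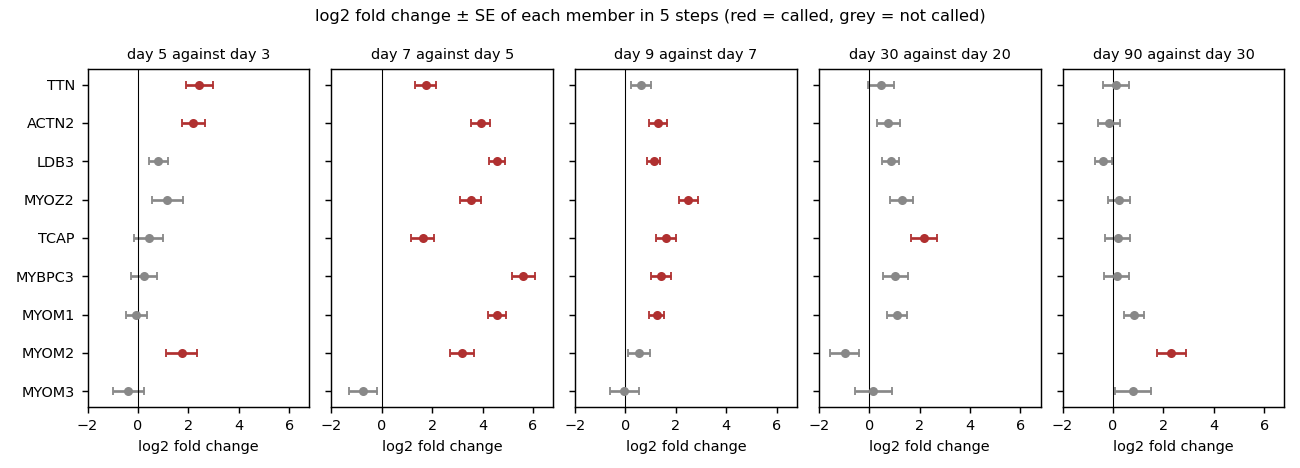
log2 fold change with its standard error (horizontal axis) of each gene in 5 steps between sampled days; red points were called and grey points were not. Red points mark TTN, ACTN2 and MYOM2 on reaching day 5, then 8 genes on reaching day 7 and 6 on reaching day 9. TCAP is red for day 30 and MYOM2 for day 90.

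From day 7 to day 9, 6 of 9 members were called higher and none lower, beside 1.02% of all genes higher and 0.261% lower. They were the 4 Z-disc partners ACTN2, LDB3, MYOZ2 and TCAP, the thick-filament gene MYBPC3 and the M-band gene MYOM1. MYOZ2 rose most, from 8.72 to 13.1 CPM in the day 7 wells to 52.3, 115, 20.6, 50.6 and 53.7 CPM (log2 fold change 2.5, SE 0.37, adjusted p = 4.7e-05). TCAP rose by 1.61 (adjusted p = 0.026), MYBPC3 by 1.41 (adjusted p = 0.039), MYOM1 by 1.23 (adjusted p = 0.024) and LDB3 by 1.12 (adjusted p = 0.012) on the log2 scale. MYOZ2 kept its call in every fit that left out a well, and LDB3 in all but that without day 7 replicate 2. MYBPC3, like ACTN2, kept its call only in the fit without day 9 replicate 2. TCAP and MYOM1 lost theirs without any one of day 7 replicates 1, 2, 3 and 4 or day 9 replicate 10. MYOM1 also lost its call without day 9 replicate 4. The number of called members fell to 1 without day 7 replicate 2, to 2 without day 7 replicate 1, 3 or 4 or day 9 replicate 10, and to 3 without day 9 replicate 4. For TTN the log2 fold change was 0.62 (SE 0.41, adjusted p = 0.64) and for MYOM2 it was 0.55 (SE 0.43, adjusted p = 0.74).

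Measured against each gene's own highest group mean, the members spread widely at day 9. MYOM2 stood at 86.4%, ACTN2 at 33.1%, TTN at 31.7% and LDB3 at 26.1%. MYBPC3 stood at 20.9%, MYOZ2 at 17.3%, MYOM1 at 8.09% and TCAP at 6.74%. The day on which a group mean first reached 50% was 7 for MYOM2, 14 for TTN, 20 for ACTN2 and LDB3, and 30 for MYBPC3, MYOM1, MYOZ2 and TCAP. On the TPM scale LDB3 reached it at day 14 and MYBPC3 at day 20, and the other 6 on the same days as in CPM. These days describe means, and between days 9 and 20 most neighbouring groups overlapped.

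**Figure D3:**
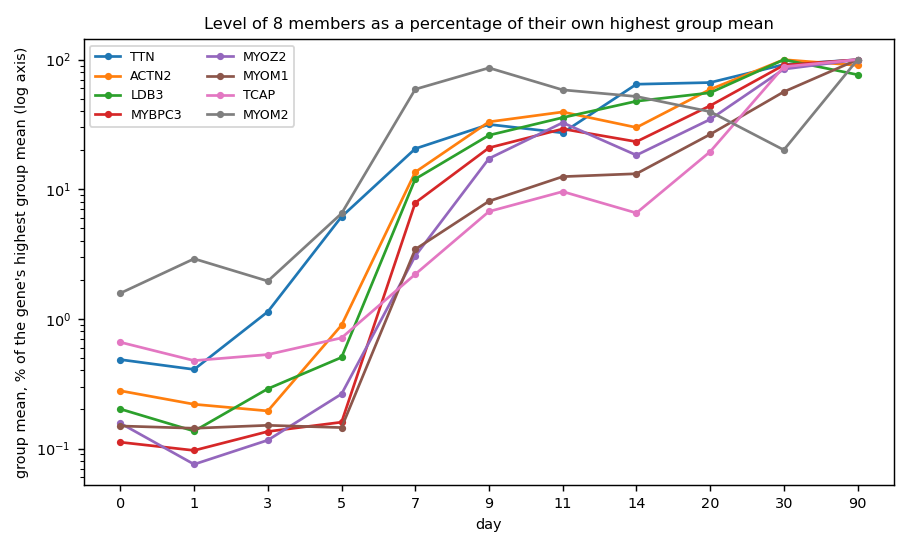
Group mean of 8 genes as a percentage of the gene's own highest group mean, on a log axis, against day (steps not to scale). MYOM2 is at 86.4% and TCAP at 6.74% at day 9, and MYOM2 falls to 20.1% at day 30 while the others stand at 56.5% or more.

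The steps from day 9 to day 20 held no called member. No member passed in either direction between days 9 and 11 (0.396% of genes higher, 1.24% lower), days 11 and 14 (0.484% and 0.213%) or days 14 and 20 (0.0479% and 0.0%). Day 0 against the pluripotent cells held none either (2.73% and 0.183%).

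Wells within a day did not match each other in these days. At day 11, replicates 1 and 2 held summed endoderm and liver markers (AFP, TTR, APOA1, ALB, FOXA2, SOX17) of 4504 and 8596 CPM, against 158 to 171 CPM in replicates 5, 6 and 7. Their cardiomyocyte markers came to 7243 and 4691 CPM, against 17334 to 18444 CPM, and their RNA integrity scores were 8.6 and 8.0. In 7 of the 9 members both of these wells lay below the other 3. The share of all genes that lay so is not given here, so this count is not read as particular to the members. TCAP stood at 5.39 and 3.64 CPM against 31, 28.8 and 28.5 CPM, a ratio of 6.51 between the means. MYOM2 stood at 7.97 and 7.01 CPM against 40.7, 38.7 and 46.1 CPM, a ratio of 5.58. MYOM1 differed less, with a ratio of 2.10. TTN overlapped, since replicate 1 (4790 CPM) lay above replicate 7 (4196 CPM), and MYOM3 also overlapped.

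With both wells left out, an alternative chosen after seeing the data, TCAP and MYOZ2 were called higher at day 11 than at day 9 and lower at day 14 than at day 11. Calls over all genes also increased under this alternative, to 240 higher and 622 lower for day 11 and to 1646 higher and 725 lower for day 14, of 22867 genes. All 3 wells of day 14 held endoderm and liver markers as well, at 2431 to 4008 CPM. At day 9, replicate 2 held 6110 CPM of these markers against 473 to 1750 CPM in the other 4 wells. That well was the lowest of day 9 for TTN, ACTN2, MYBPC3, MYOM1, LDB3, MYOZ2 and TCAP. The share of all genes lowest in that well is not given here, so this is not read as particular to the members. The part of these cells in the results was not tested.

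TCAP rose again late. It was called at day 30 against day 20, as 1 of 9 members with none lower, beside 0.758% of all genes higher and 1.26% lower. The day 20 wells held 54.2, 21.9 and 42.4 CPM and the day 30 wells 127, 144 and 266 CPM. The groups did not overlap, and the log2 fold change was 2.17 (SE 0.52, adjusted p = 0.013). The call was lost without day 20 replicate 2, the well with the fewest counts, and without the libraries under 1e7 counts. It was also lost when only these groups entered the fit and in limma on TPM. The day 90 wells, at 160, 197 and 251 CPM, lay within the day 30 range.

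From day 9 to day 90, 8 of 9 members were called higher, all but MYOM2, beside 11.9% of all genes. TCAP rose by 3.89 on the log2 scale (SE 0.46, adjusted p = 1.1e-08) and MYOM1 by 3.63 (SE 0.36, adjusted p = 2.5e-10). MYOZ2 rose by 2.53 (adjusted p = 1.9e-06), MYBPC3 by 2.26 (adjusted p = 4.2e-05), TTN by 1.66 (adjusted p = 0.0039), LDB3 by 1.55 (adjusted p = 4.5e-05) and ACTN2 by 1.45 (adjusted p = 0.0029). MYOM3 was also called (1.57, adjusted p = 0.041), but not with lane as a term (adjusted p = 0.11), with no filter on low counts (adjusted p = 0.073), with the replicate number as a block (adjusted p = 0.11), or without any one of day 9 replicates 1, 2, 4 and 10 and day 90 replicates 4 and 5.

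The day 90 wells were uneven. Replicate 4 held 37900 CPM of TTN against 10583 and 8334 CPM, 2503 CPM of MYBPC3 against 712 and 828 CPM, and 2696 CPM of MYOM1 against 920 and 1317 CPM. In the same wells, fibroblast and epicardial markers came to 2214 CPM in replicate 4 and to 12875 and 6614 CPM in replicates 2 and 5. Without replicate 4 the count fell to 5 members, and TTN, ACTN2 and MYOM3 were no longer called. The part of the marker difference in this was not tested.

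The 3 myomesin genes went different ways. MYOM1 increased through every later group mean, from 133 ± 49.8 CPM at day 9 (SD, n = 5) to 436 ± 110 CPM by day 20, then 929 ± 255 CPM by day 30 and 1644 ± 932 CPM by day 90 (SD, n = 3 each). MYOM2, the myomesin tied to fast and mature striated muscle, reached 41.5 ± 5.78 CPM at day 9 (SD, n = 5). Its wells then held 28.2, 22.0 and 6.94 CPM at day 20 and 7.17, 9.22 and 12.6 CPM at day 30. All day 30 wells lay below all day 9 wells, the lowest of which held 33.4 CPM, although no step between was called. At day 90 MYOM2 stood at 63.3, 15.0 and 65.8 CPM. These wells lay above all of day 30 (log2 fold change 2.32, SE 0.59, adjusted p = 0.01), the 1 member of 9 called at this step beside 2.65% of all genes. The call was lost when lane was a term of the model (adjusted p = 0.11), when only these groups entered the fit (adjusted p = 0.23) and in limma on TPM (log2 fold change 0.52, adjusted p = 0.48). Day 90 and day 9 did not differ by the test in MYOM2 (log2 fold change 0.21, SE 0.49, adjusted p = 0.77).

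The balance of MYOM2 to MYOM1 was compared as a log2 ratio of TPM (the authors' values per transcript length, which sum to the same total in every library) with 0.1 added to each. It was -1.30 ± 0.73 at day 9 (SD, n = 5), -5.64 ± 0.60 at day 30 and -4.79 ± 1.97 at day 90 (SD, n = 3 each). The difference of day 90 from day 9 was -3.48 (two-sided exact permutation test, p = 0.0357, the smallest that 3 against 5 wells allow; adjusted over 4 ratios 0.0476). All 3 day 90 wells lay below all 5 day 9 wells. TCAP to TTN rose by 2.45, with the same exact p = 0.0357 (adjusted 0.0476). MYOM3 to MYOM1 differed by -2.72 (exact permutation p = 0.0357, adjusted 0.0476), but MYOM3 averaged 0.048 TPM at day 9 and 0.087 TPM at day 90, less than the 0.1 added, so that this value largely repeats the rise of MYOM1. The adjusted p of MYOM2 to MYOM1 and of TCAP to TTN lay below 0.05 only because this ratio also reached the smallest p. With 1 TPM added in place of 0.1, or on the CPM scale, the p of TCAP to TTN was 0.0714. TTN to TNNT2, cardiac troponin T of the thin filament, differed by 0.06 between the days (exact permutation p = 0.929, adjusted 0.929). Its wells ranged from -3.98 to -2.23 at day 90 and from -3.97 to -2.74 at day 9.

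**Figure D4:**
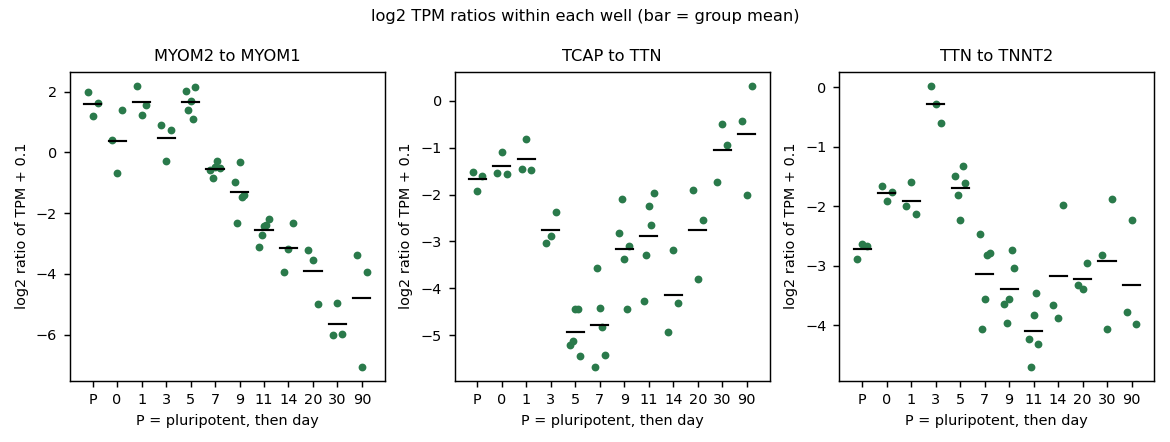
log2 ratio of TPM + 0.1 within each well for 3 gene pairs, by group (P, pluripotent), with a bar at the group mean. MYOM2 to MYOM1 moves from a mean of 1.67 at day 5 to -5.64 at day 30, TCAP to TTN is lowest at day 5 (-4.93), and TTN to TNNT2 peaks at day 3 (-0.29).

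TTN stood high relative to TNNT2 before the sarcomere genes rose. The log2 TPM ratio was -1.78 ± 0.13 at day 0 and -0.29 ± 0.31 at day 3 (SD, n = 3 each), then -1.70 ± 0.35 at day 5 and -3.14 ± 0.65 at day 7 (SD, n = 5 each). The day 3 wells lay above those of every other group. TNNT2 itself stood at 4.98 ± 1.73 CPM at day 3 (SD, n = 3), near its day 0 level of 6.86 ± 0.828 CPM.

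MYOM3, the myomesin known from skeletal muscle, stayed near the limit of detection. It held 19 to 28 counts per well at day 0, 1, 2 and 7 counts at day 1 and 18 to 21 counts at day 3. The fall to day 1 (log2 fold change -2.85, SE 0.77, adjusted p = 0.0064) made it the 1 of 9 members called lower with none higher, beside 9.66% of all genes lower and 3.86% higher, and the call was lost without day 1 replicate 1. The return at day 3 was called too (2.79, SE 0.78, adjusted p = 0.0056). Summed skeletal muscle markers moved in the same wells, at 44.4 to 50 CPM on day 0, 5.14 to 5.98 on day 1 and 10.9 to 13.5 on day 3, and their part was not tested. ACTN3 made up most of that sum, with means of 39.7, 2.27 and 10.1 CPM on these days. Of the 5 skeletal muscle markers tested, 1 was called higher and 2 lower at each of these steps. At day 9 MYOM3 stood at 5 to 13 counts per well, and 8 of the 9 members were called higher than at day 0 while MYOM3 was not (log2 fold change -1.22, SE 0.61, adjusted p = 0.095). The fit of only these groups called MYOM3 lower. Beside that count, 17.1% of all genes were called higher at day 9 than at day 0.

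Over the long span from day 0 to day 9, MYBPC3 rose by 7.54, LDB3 by 7.01, ACTN2 by 6.89 and MYOZ2 by 6.77 on the log2 scale. TTN rose by 6.03, MYOM2 by 5.77, MYOM1 by 5.76 and TCAP by 3.34 (largest adjusted p of these 8, 4.9e-06). The starting levels behind these values were low and uneven. In the 4 groups up to day 3, the well sequenced in lane 1 was the lowest of its group in 30 of 36 cases of gene and group, and in all 4 groups for ACTN2, MYBPC3, MYOM1, LDB3 and MYOZ2. The share of such cases over all genes is not given here. Over all its libraries, lane 1 also had the lowest mean for every member but MYOM2 and MYOM3. For MYBPC3 this mean was 155 CPM, against 304 to 524 CPM in the other lanes. None of the lane 1 libraries was of day 30 or day 90, so lanes differ in the groups behind these means. The 4 early wells in lane 1 averaged 0.929 CPM of MYBPC3, against 1.28 to 2.38 CPM in early wells of the other lanes. This early mean was also lowest in lane 1 for ACTN2, MYOM1 and MYOZ2. It was not for TTN (90.7 CPM, against 60.9 in lane 5), MYOM2, MYOM3, TCAP and LDB3. The part of neighbouring libraries in these early levels was not tested. With lane as a term, 8 members remained called at day 7 against day 5.

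Levels of different members were compared on the TPM scale. At day 5 TTN stood first in all 5 wells, with a mean of 16.6 ± 7.60 TPM, followed by ACTN2 (2.48 ± 0.862) and MYOM2 (1.13 ± 0.567; SD, n = 5 each). At day 9 ACTN2 stood first in 3 wells and TTN in 2, with means of 67.7 ± 39.3 and 58.3 ± 41.8 TPM (SD, n = 5 each), so that their order did not hold across wells. MYBPC3 followed at 33.0 TPM, LDB3 at 12.6, MYOM1 at 12.2, MYOZ2 at 10.9, TCAP at 6.03, MYOM2 at 4.56 and MYOM3 at 0.048 TPM. By day 90 MYOM1 (98.1 ± 73.8 TPM) and TCAP (59.9 ± 15.9 TPM) had means above MYOZ2 (40.7 ± 1.78) and LDB3 (27.0 ± 9.31), and MYOM2 stood at 3.28 ± 1.74 TPM (SD, n = 3 each).

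The TPM scale shifts all genes against the count scale. The median shift over 5029 genes was -0.39 (log2) between days 0 and 9, -0.57 between days 9 and 90, -0.87 between days 30 and 90 and 0.57 between days 11 and 14. Limma on log2(TPM + 0.1) called 5 members between days 9 and 90, in place of 8, and 1 member, MYOZ2, between days 7 and 9, in place of 6. Scale, test and filter all changed in this alternative, and which of them moved the counts was not tested. The share of all genes it called is not given here. MYOM2 also depended on the length that the authors' quantification assigned to it. Its counts per TPM, relative to the median of the library, were 0.357 ± 0.009 in pluripotent cells and 0.574 ± 0.185 at day 0 (SD, n = 3 each). They reached 2.08 ± 0.154 at day 9 (SD, n = 5), whereas MYBPC3 stayed between 1.87 and 1.95 in the groups up to day 9. The mean of MYOM2 at day 9 was 54.7 times its day 0 mean in CPM and 10.8 times in TPM. The general shift of -0.39 between these days also enters this difference. The counts per TPM of TCAP went the other way, from 0.862 at day 0 to 0.492 at day 9, and its mean rose 10.2 times in CPM and 14.7 times in TPM. In TTN the same measure differed between wells of a day, from 10.5 to 21.4 at day 7 and from 18.8 to 33.9 at day 20. The TPM ratios with TTN carry this spread.

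Other genes of the sarcomere were read from lists by place. For day 9 against day 0, 13 of 20 other Z-disc genes were called higher and 1 lower, beside 17.1% of all genes higher and 14.6% lower, with a median log2 fold change of 2.94 against 0.08 over all genes. XIRP1 rose from 0.962 ± 0.349 to 221 ± 70.7 CPM and CSRP3, the muscle LIM protein, from 1.11 ± 0.835 to 71.0 ± 37.3 CPM (SD, n = 3 and n = 5). SYNPO2L rose by 6.28 on the log2 scale. NEB, nebulin, fell from 26.7 ± 5.18 to 8.28 ± 2.57 CPM (SD, n = 3 and n = 5; log2 fold change -1.69, SE 0.45).

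Of 12 other M-band and titin kinase genes, 9 were called higher and 0 lower at day 9 (edgeR; median 3.68). SMPX rose by 7.81, TRIM55, a ubiquitin ligase that binds titin near the M-band, by 7.51, and CKM, the muscle creatine kinase, by 7.08 on the log2 scale. Of 6 I-band partners of titin, 3 were called higher, led by CAPN3 (0.594 ± 0.323 to 191 ± 97.3 CPM) and ANKRD1 (14.2 ± 1.88 to 1354 ± 1069 CPM; SD, n = 3 and n = 5), and FHL2 rose by 2.69. Of 6 other thick-filament genes 4 were tested. MYH6, the atrial and early cardiac myosin, rose by 8.72 and MYH7, the slow myosin, by 4.26, while MYBPC2 fell by 3.92. MYBPHL, also called higher, was at 0 counts in every day 0 well and at 0.915 ± 0.440 CPM at day 9 (SD, n = 5).

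Of 10 assembly factors, 9 were called higher and 0 lower at day 9, with a median of 5.83. UNC45B, the myosin chaperone, rose from 0.999 ± 0.270 to 312 ± 92.3 CPM (SD, n = 3 and n = 5), SMYD1 by 7.39 and KLHL41 by 6.74 on the log2 scale. Of 6 non-muscle counterparts, 1 was called higher, ACTN4 (141 ± 9.59 to 283 ± 60.1 CPM; SD, n = 3 and n = 5), and the list's median was -0.14. The alpha-actinin of muscle thus rose by 6.89 and the non-muscle ACTN4 by 1.01 on the log2 scale in the same wells. Markers of other cell types were also called higher at day 9 than at day 0, namely 6 of 6 fibroblast and epicardial, 6 of 6 endoderm and liver, 4 of 5 endothelial and 4 of 5 smooth muscle markers, and their part was not tested.

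For day 90 against day 9 the counts were 14 higher and 1 lower of 20 other Z-disc genes, 5 and 0 of 12 M-band genes, 3 and 1 of 6 I-band partners, 2 and 1 of 6 thick-filament genes, 9 and 0 of 10 assembly factors, and 0 and 2 of 6 non-muscle counterparts. Over all genes 11.9% were called higher and 12% lower. At the Z-disc CRYAB, a small heat shock protein, rose by 4.31 and XIRP2 by 4.83, and ACTN3 fell by 2.59. MYOT, myotilin, held at most 1 count in any day 9 well and 0.990 ± 0.236 CPM at day 90 (SD, n = 3). At the M-band TRIM63 rose by 4.47, LRRC39 by 3.34 and CKM by 2.74.

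In the I-band FHL2 rose by 3.59 and FHL1 by 2.66, whereas CAPN3 fell by 3.78 on the log2 scale to 13.9 ± 2.75 CPM (SD, n = 3). ANKRD2 was called at 0.487 ± 0.326 CPM at day 90 (SD, n = 3), from at most 3 counts in any day 9 well. MYH7 rose by 6.8, to 16278 ± 17595 CPM at day 90 (SD, n = 3), and MYH6 fell by 2.26. MYBPHL rose by 2.16, to 4.08 ± 3.71 CPM at day 90 (SD, n = 3), with the lowest day 90 well at 0 counts. Among assembly factors LMOD2 rose by 3.94 and HSPB7 by 3.35, and LMOD3 stood at 30.4 ± 14.6 CPM after at most 4 counts in any day 9 well (SD, n = 3). ACTN4 fell by 1.49 and MYH9 by 1.07. Of other cell types, 5 of 5 endothelial and 5 of 6 endoderm and liver markers were called lower at day 90, and 3 of 6 fibroblast and epicardial and 3 of 5 smooth muscle markers higher. Their part in these counts was not tested.

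The members' profiles were compared over the 44 libraries by Pearson's r of log2 CPM, as a description, since the libraries share the time course. Among the 8 members that rose, r between pairs was 0.71 to 0.99, and MYOM3 had -0.15 to 0.05 with the others. Of 16846 protein-coding genes, MYO18B, an unconventional myosin of striated muscle, was most like ACTN2 (0.991) and MYBPC3 (0.992), followed by POPDC2 for ACTN2 (0.989) and CKM for MYBPC3 (0.988). HSPB7 was most like MYOM1 and MYOZ2 (0.992 each), followed by CACNB2 for MYOM1 (0.983) and SLC8A1, the sodium-calcium exchanger, for MYOZ2 (0.984). LDB3 was most like SMPX (0.990) and MYO18B (0.986), and TCAP most like DUSP3 and LMOD2 (0.973 each). TTN had its highest values with ARHGAP31 (0.971) and CACNA1C, the L-type calcium channel (0.967). MYOM2 had lower ones, with ABRA (0.925) and INTS6L (0.924), and MYOM3 reached 0.739 with MYO7B and 0.734 with SLC17A7.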

How the data were processed

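RNA of 44 wells was sequenced as stranded total-RNA libraries, per the labels' protocols. The authors deposited unscaled expected counts for each gene (93.8% of values whole) and TPM, scaled per transcript length to the same sum. A further deposited table gives an RNA integrity score (7.4 to 10), 1 of 5 lanes and 1 sequencing batch for each library. The submitters' processing notes name cutadapt, STAR 2.5.2b, RSEM 1.2.31 and hg38; the annotation and the use of strand are not given in the sources used here. All columns were matched by name, and of 60499 gene identifiers 56769 were found in GENCODE release 29.

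Counts were rounded, filtered with filterByExpr and scaled by TMM in edgeR 4.0.16 (R 4.3.3). The quasi-likelihood fit used all libraries and 22955 genes, with group as the only term, and gave 13 contrasts. Alternatives used DESeq2 1.42.0, limma 3.58.1, other scalings and filters, and left-out wells. The steps were tested on simulated data. For 4 ratios, exact permutation tests were run in scipy 1.17.1. Molecular identifiers are not mentioned in the labels, so floors cover counting error only. Replicate numbers were not treated as pairs, since the deviations of same-numbered wells did not correlate above 0.1 in every pair of any comparison with 3 or more pairs. Comparisons with 2 pairs could not meet this rule. Among them, day 20 against day 14 had 0.553 and 0.61, and the pairs of the others ran from -0.101 to 0.37.

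The members and lists were chosen with earlier results of these data known. All members are named. Of each related list, up to 3 called genes with the largest rise and up to 3 with the largest fall are named for day 9 against day 0 and day 90 against day 9. The 2 protein-coding genes most correlated with each member are named too. CCDC141, TTN-AS1 and TNNT2 were named outside this rule. Promoter sequence was read for 5 members, and that of the others is not reported here.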

Additional observations from a re-analysis of the deposited data

Results flagged for a closer look

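Of 36 cases of gene and group with 5 wells or fewer, but at least 4, 1 well stood far from the others. LDB3 at day 9 was at 60.2 CPM in replicate 2 and at 110 to 128 CPM in the other 4 wells. The gap made up 0.738 of the whole range, above Dixon's critical value of 0.71 for 5 wells. Chance alone gives about 1 such case in 20. The same well held 6110 CPM of endoderm and liver markers, and their part was not tested.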

How the results depend on the processing

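Other scaling (RLE), DESeq2 and other filters moved no count of called members by more than 1.5 times. In what follows a step is named by its later day. Shares over all genes under each alternative are not given in this section. The counts therefore do not show whether the members moved apart from other genes. Fitting only the groups compared gave 1 member for the step from pluripotent cells to day 0, and 0 for the steps to day 30 and to day 90. Limma on TPM gave 0 members for the steps to days 1, 3, 30 and 90, 1 for the step to day 9, and 5 between days 9 and 90. Lane as a term gave 0 for the step to day 90. A pair of alternatives was chosen after seeing the data. Without the libraries under 1e7 counts the step to day 30 had 0 members, and leaving out day 11 replicates 1 and 2 gave 2 for the step to day 11 and 2 for the step to day 14. The replicate block gave 1 member for the step to day 11 (MYOM2, lower), 1 for the step to day 20 and a MYOM2 to MYOM1 difference of -4.35; it moved no other count of called members by over 1.5 times. The labels do not say what a shared number means, and many wells that share one also share a lane. Those numbered 1, from the pluripotent group to day 11, were all in lane 1. For the step to day 9, the correlations of same-numbered wells ran from 0.0546 to 0.454 over 5 pairs. For the step to day 20 they were 0.553 and 0.61 over 2 pairs.

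Leaving out 1 well gave 0 to 1 members for the step to day 1, 1 to 3 for day 3, 2 to 3 for day 5, 7 to 8 for day 7, 1 to 6 for day 9, 0 to 1 for day 11, 0 to 2 for day 30 and 1 to 2 for day 90. It gave 5 to 8 between days 9 and 90, and 8 throughout between days 0 and 9. The ratio differences ran from -4.18 to -2.35 (MYOM2 to MYOM1), -3.0 to -2.37 (MYOM3 to MYOM1), 1.94 to 3.10 (TCAP to TTN) and -0.48 to 0.39 (TTN to TNNT2). With fewer wells the smallest exact p is 0.0571 or 0.0952, so these ratio tests could not pass. TCAP to TTN was 2.23 with a pseudocount of 1 TPM and 2.58 in CPM (exact p = 0.0714 each). TTN to TNNT2 turned to -0.24 in CPM, to -0.08 without day 9 replicate 10 and to -0.48 without day 90 replicate 4. The cause of these changes was not tested. MYOM3 held 1 to 29 counts per well, so its values rest on few counts.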
